A study of Mus musculus with 4 samples.

Results

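The 10 genes of smooth muscle and mural cells, the cells that wrap the wall of blood vessels, described here were measured in sham-operated and pressure-overloaded mouse hearts. The members were Acta2, Tagln, Cnn1, Myh11, Smtn, Actg2, Lmod1, Mylk, Pdgfrb and Rgs5, chosen by name, and a probe was taken for a member when its transcript identifier belonged to that gene. This gave 10 genes with 11 probes, of 21762 named genes and 55681 probes on the array. Smtn had 2 probes, and the probe of Acta2 was spotted 10 times on each array. Hearts came from male C57BL/6J mice with no genetic change, after a sham operation or transverse aortic constriction (TAC), a narrowing of the aortic arch that makes the left ventricle pump against a higher pressure. They were taken 2 or 8 weeks after surgery, which the study chose for the hypertrophic response and for the phase of heart failure. By the labels the mice of the 2-week hearts were 10 weeks old and those of the 8-week hearts 16 weeks old, whereas the methods place surgery at 12 weeks of age, so the age itself is uncertain. Each of the 4 conditions was measured once, on 1 single-colour array hybridized with RNA pooled from 4 to 6 mice. The spread between mice was therefore not measured, no p-value was computed, and every difference is that of a pair of pools.

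Vascular smooth muscle cells and pericytes are together called mural cells. Smooth muscle cells contract through actin filaments made of the alpha isoform (Acta2) or the gamma isoform of enteric muscle (Actg2) and through smooth muscle myosin (Myh11), which myosin light chain kinase (Mylk) switches on. Transgelin (Tagln), calponin (Cnn1), smoothelin (Smtn) and leiomodin (Lmod1) bind or build the actin filaments of these cells. Many of these genes are driven by serum response factor (SRF) with its partner myocardin, at a motif known as the CArG box. Acta2 and Tagln are also made by myofibroblasts, the fibroblasts of an injured or loaded heart that lay down matrix. Pericytes depend on PDGF-B from endothelial cells, which acts on their receptor PDGFRB, and Rgs5 encodes an inhibitor of G-protein signalling found in pericytes and in arterial smooth muscle.

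Signals are given relative to the 75th percentile of the same array over its 55681 non-control probes. That percentile lay between 206.0 and 248.5 intensity units, between 54.7% and 58.5% of the probes were well above background, and no spot was saturated. A single slide and a single scan held all 4 arrays. The hearts carried the marks of their labels. All 8 cardiomyocyte genes checked were well above background on every array, and Acta1, Myh7, Nppa and Nppb, the classical genes of hypertrophy, were over 2-fold higher after TAC at both times. Spots of the same probe within an array gave the only measure of error. The log2 ratio of a pair of such spots had an SD of 0.162 over all signal levels, of 0.0978 between 1 and 16 times the 75th percentile, and of 0.227 below the 75th percentile. This covers the printing and reading of spots and not the mice or the labelling. In whole-heart RNA, fewer cells of a type and less RNA per cell cannot be told apart.

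Of the 10 members, 9 were well above background on all 4 arrays. Lmod1 was not well above background on any, at 0.0736, 0.0278, 0.0448 and 0.0394 times the 75th percentile for sham and TAC at 2 weeks and sham and TAC at 8 weeks, so it has no level and no fold here. After TAC the group as a whole moved little. At 2 weeks 7 of the 9 measured members were higher and 2 were lower than in sham, with a median log2 difference of 0.31 and a range from -0.32 to 1.03. At 8 weeks again 7 were higher and 2 were lower, with a median of 0.12 and a range from -0.58 to 0.53. The median over the 14299 genes measured on all arrays was -0.01 at both times. Without scaling between arrays every log2 difference at 8 weeks would stand 0.17 higher, so the sign of a small negative difference there depends on the scaling.

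**Figure D1:**
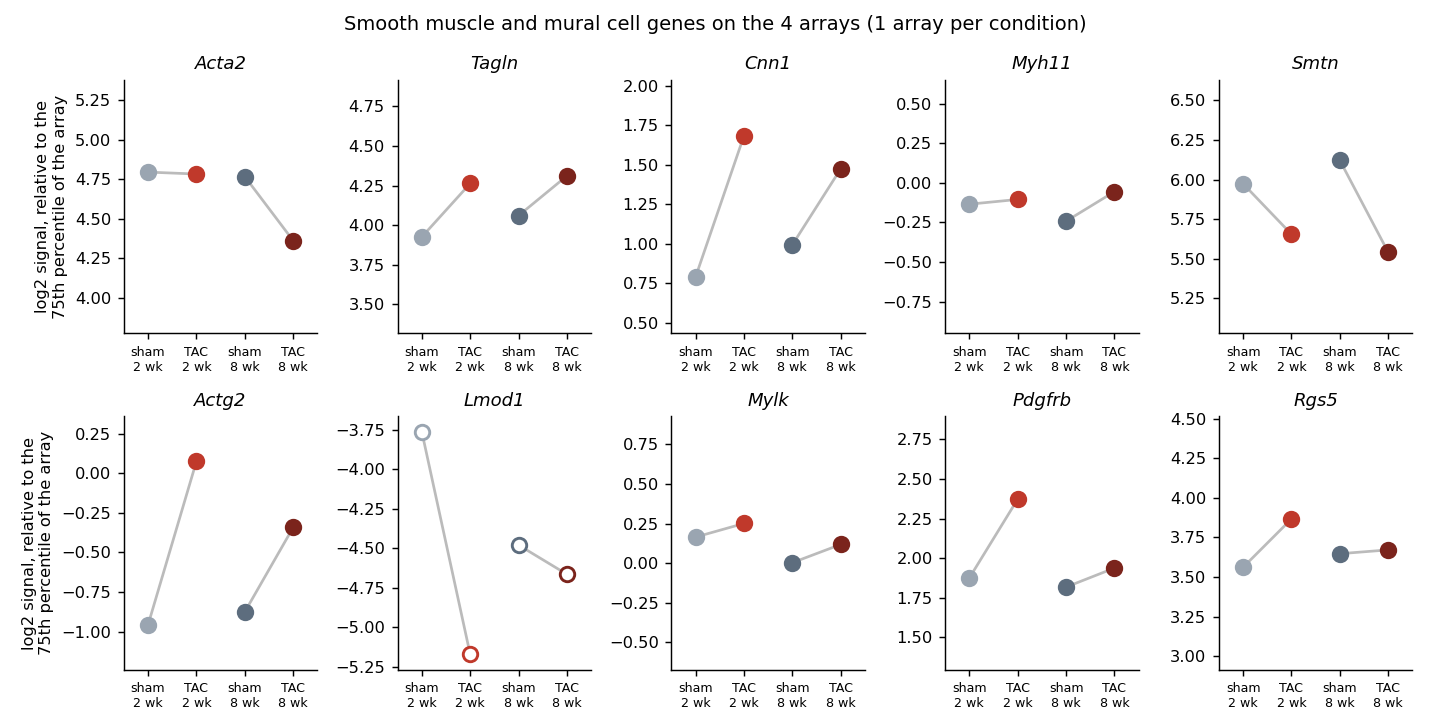
Log2 signal of each of the 10 genes on the 4 arrays, relative to the 75th percentile of the array, with 1 point per array and a grey line from sham to TAC at the same time. Each panel spans the same height in log2 units, and the open points of Lmod1 were not well above background. Actg2 and Cnn1 step up at 2 weeks, whereas Acta2 is level at 2 weeks and lower on the TAC array of 8 weeks.

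The question at 2 weeks is what the mural genes do during the hypertrophic response. One member, Actg2, was over 2-fold higher and none was over 2-fold lower, beside 2.43% of all genes tested that were over 2-fold higher and 1.19% that were over 2-fold lower. At a threshold of 1.5-fold, 2 members, Actg2 and Cnn1, were higher, beside 6.81% of all genes, and none was lower, beside 3.33%. In 6 of the 9 members the difference between TAC and sham was larger than the difference between the sham arrays of 2 and 8 weeks for the same gene, which was so for 58.9% of all genes.

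At 8 weeks, the time taken for heart failure, no member passed 2-fold in either direction, beside 3.26% of all genes higher and 2.06% lower. None passed 1.5-fold either, beside 7.23% higher and 5.63% lower, but Smtn lay next to that threshold at 1.495-fold lower and passed it, at a log2 difference of -0.60, with quantile normalization and in the deposited table. In 7 of the 9 members the difference from sham exceeded the difference between the sham arrays for that gene, which was so for 63.5% of all genes. Both of these shares lie near those of all genes. With its sign kept, the difference at 8 weeks was below that at 2 weeks for 7 of 9 members, against 49.2% of all genes, and for 6 of 9 without scaling, against 21.7%. By size, 5 of the 9 stood nearer to sham at 8 than at 2 weeks, against 43.0% of all genes. These were Actg2, Cnn1, Tagln, Pdgfrb and Rgs5, and Acta2, Smtn, Myh11 and Mylk stood farther from it. Without scaling 4 of the 9 were nearer, against 37.5% of all genes, and with the array median as the scale 4 of 9, against 44.7%. These shares too are near those of all genes.

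The actins of the set took different courses. Actg2 (chr6:83512905-83536265, minus strand, the span of all its GENCODE transcripts in GRCm38, as for the genes below) stood at 0.515 times the 75th percentile in sham and 1.05 after TAC at 2 weeks, and at 0.545 in sham and 0.789 after TAC at 8 weeks. It was thus 2.05-fold higher at 2 weeks, a log2 difference of 1.03, and 1.45-fold higher at 8 weeks, a log2 difference of 0.53. Both TAC arrays were above both sham arrays, and the sham arrays differed by 0.08. Actg2 is the actin of the gut and bladder wall and is also found in some vessels. Its probe was dim, where the spot error is largest (0.227), and its differences at both times exceeded that error.

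Acta2, the main actin of arterial smooth muscle and the usual marker of myofibroblasts, lies on the minus strand of chromosome 19 (chr19:34241090-34255590, GRCm38). It stood at 27.7 times the 75th percentile in sham and 27.5 after TAC at 2 weeks, a log2 difference of -0.01. At 8 weeks it stood at 27.2 in sham and 20.6 after TAC, so that it was 1.32-fold lower, a log2 difference of -0.40. The first 3 arrays were nearly level and the TAC array of 8 weeks stood apart below them. The 10 spots of its probe, with an SD of 0.037 to 0.059 within an array, ran from 25.3 to 28.3 in sham and from 19.6 to 22.4 after TAC at 8 weeks and did not overlap. At 2 weeks the spots overlapped almost fully, from 26.4 to 28.6 in sham and from 25.9 to 29.0 after TAC. The spots are copies of a probe on an array of a single pool and do not show the spread between mice. The sign of the 2-week difference turned with the scaling of the arrays, between -0.05 and 0.02, while that of 8 weeks stayed between -0.43 and -0.24.

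The promoters of Acta2 and Cnn1 are shown because these genes of the same contractile programme stood on opposite sides of sham at 8 weeks. They are the RefSeq sequences of GRCm38.p6 from 250 bases before to 50 bases after the start of the curated RefSeq transcript, chr19:34255324-34255623 on the minus strand for Acta2 and chr9:22099003-22099302 on the plus strand for Cnn1. These transcripts start at base 34255373 of chromosome 19 and base 22099253 of chromosome 9, inside the spans given for the genes, because other annotated transcripts start farther out. Capitals mark the stretches that match the CArG box with 1 mismatch among its 10 bases, a motif that reads the same on both strands.
Acta2: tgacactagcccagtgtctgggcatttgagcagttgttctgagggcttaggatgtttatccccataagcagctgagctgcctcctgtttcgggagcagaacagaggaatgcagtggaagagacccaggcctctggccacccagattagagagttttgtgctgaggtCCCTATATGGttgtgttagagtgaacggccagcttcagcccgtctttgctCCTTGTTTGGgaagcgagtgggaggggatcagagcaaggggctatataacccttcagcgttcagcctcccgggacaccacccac
Cnn1: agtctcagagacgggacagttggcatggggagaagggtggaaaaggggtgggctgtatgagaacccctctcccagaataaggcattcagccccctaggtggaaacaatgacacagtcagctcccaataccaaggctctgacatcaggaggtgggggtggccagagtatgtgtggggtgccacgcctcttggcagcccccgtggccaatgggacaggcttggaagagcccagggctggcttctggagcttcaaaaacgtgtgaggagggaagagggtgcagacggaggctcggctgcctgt

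The Acta2 window held 2 such stretches, which began 84 and 34 bases before that start, and the Cnn1 window held none. Of the 10 members, 6 had a promoter in the reference used, namely Acta2, Cnn1, Smtn, Lmod1, Mylk and Rgs5. An exact CArG box stood in 0 of these 6 windows, compared with 1.63% of the 32851 promoters of the mouse. With 1 mismatch allowed, 2 of the 6 held one, Acta2 and Lmod1, compared with 21.1% of all promoters. A match is a description of letters, and elements outside this window were not searched.

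Cnn1 (chr9:22099216-22109630, plus strand), whose product calponin binds actin and slows the myosin ATPase, stood at 1.73 times the 75th percentile in sham and 3.21 after TAC at 2 weeks, and at 1.99 in sham and 2.78 after TAC at 8 weeks. It was 1.85-fold higher at 2 weeks (log2 difference 0.89) and 1.39-fold higher at 8 weeks (0.48). Like Actg2, it was above both sham arrays on both TAC arrays, and its step was smaller at 8 weeks. The sham arrays differed by 0.20, the largest sham difference among the 9 members.

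Tagln (chr9:45929619-45936058, minus strand), which encodes the actin-binding protein transgelin, stood at 15.2 in sham and 19.2 after TAC at 2 weeks, and at 16.7 and 19.9 at 8 weeks. This was 1.26-fold and 1.19-fold higher after TAC, log2 differences of 0.34 and 0.25 beside 0.13 between the sham arrays. The TAC arrays lay close together and above both sham arrays. Tagln therefore stood higher at 8 weeks, where Acta2 stood lower.

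Smtn (chr11:3517523-3540612, minus strand) encodes smoothelin, an actin-associated protein of fully contractile smooth muscle, and it was lower after TAC at both times. Its brighter probe gave 62.8 in sham and 50.4 after TAC at 2 weeks, and 69.6 and 46.6 at 8 weeks. This was 1.25-fold and 1.5-fold lower, log2 differences of -0.32 and -0.58, with both TAC arrays below both sham arrays. With this probe Smtn was the brightest of the members on every array, and which cells gave its signal was not tested. Its other probe, which carries the identifier of another transcript of the gene, gave 8.43 and 8.10 at 2 weeks and 10.2 and 8.60 at 8 weeks, log2 differences of -0.06 and -0.24. The probes differed in the size of the difference and not in its direction, and on the second probe the TAC array of 8 weeks lay above the sham array of 2 weeks.

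In the main processing the myosin and its kinase hardly differed between arrays. Myh11 (chr16:14194535-14291372, minus strand), the myosin heavy chain that defines mature smooth muscle, stood at 0.911 in sham and 0.930 after TAC at 2 weeks, and at 0.845 and 0.962 at 8 weeks. Its log2 differences of 0.03 and 0.19 were both within the spot error at its level, 0.227. The sign at 2 weeks turned with the processing, between -0.03 and 0.05. The 8-week difference of Myh11 ran from 0.13 to 0.35. It exceeded that error without scaling (0.35) and with the array median as the scale (0.27). Mylk (chr16:34745210-35002420, plus strand) stood at 1.12 and 1.19 at 2 weeks and at 1.002 and 1.09 at 8 weeks, log2 differences of 0.09 and 0.12 beside -0.16 between the sham arrays. The 8-week difference of Mylk ran from 0.10 to 0.28 over the processing alternatives, so its size relative to the sham difference depended on the scaling.

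**Figure D2:**
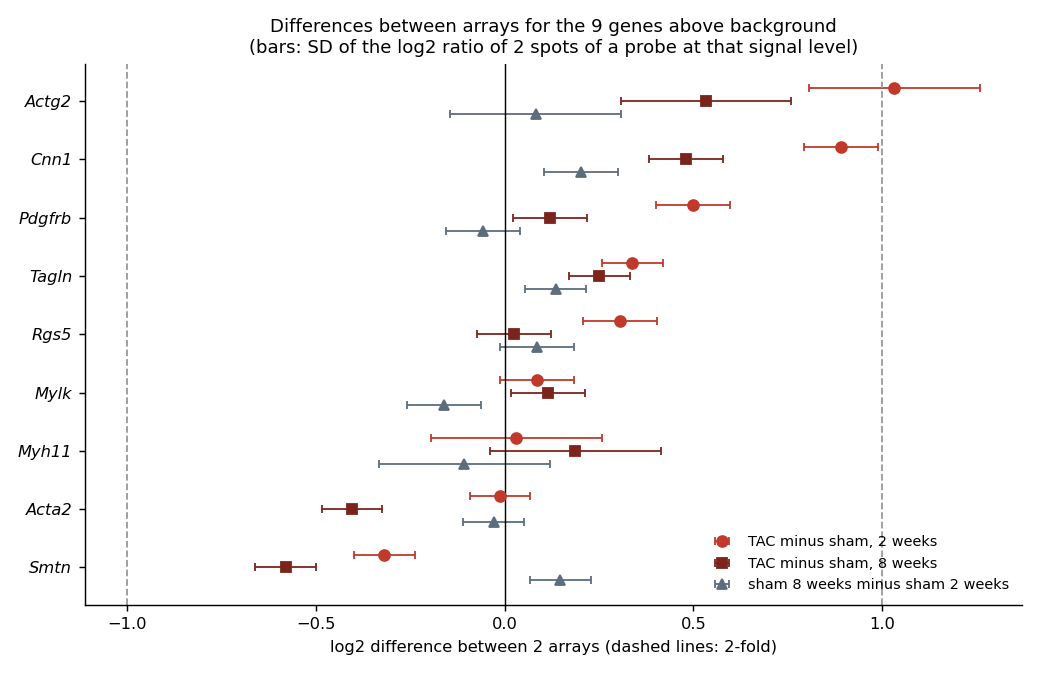
Log2 differences between arrays for the 9 genes above background, with TAC minus sham at 2 weeks as circles, TAC minus sham at 8 weeks as squares and sham at 8 weeks minus sham at 2 weeks as triangles. Bars are the SD of the log2 ratio of a pair of spots at that signal level, and dashed lines mark 2-fold. Actg2 and Cnn1 lie farthest to the right at 2 weeks, at 1.03 and 0.89, and Smtn and Acta2 farthest to the left at 8 weeks, at -0.58 and -0.40.

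In the main processing the pericyte members were higher at 2 weeks and near sham at 8 weeks. Pdgfrb, on chromosome 18, encodes the receptor through which PDGF-B recruits and keeps pericytes. It stood at 3.67 in sham and 5.18 after TAC at 2 weeks, and at 3.52 and 3.83 at 8 weeks. It was 1.41-fold higher at 2 weeks (log2 difference 0.50) and 1.09-fold higher at 8 weeks (0.12), with sham arrays that differed by -0.06. The TAC array of 2 weeks was the high one, and the other 3 arrays lay within 0.12 of one another on the log2 scale. Over the processing alternatives the 8-week difference ran from 0.10 to 0.29, the highest without scaling.

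Rgs5 (chr1:169655501-169695813, plus strand) showed a like course at a smaller size. It stood at 11.8 in sham and 14.6 after TAC at 2 weeks, and at 12.5 and 12.7 at 8 weeks. Its log2 difference was 0.31 at 2 weeks, and 0.02 at 8 weeks, where the sign turned with the scaling, between -0.01 and 0.19. In the main processing the TAC array of 2 weeks was again the high one and the other 3 were close together. Without scaling the TAC array of 8 weeks was the highest, at 3166 intensity units beside 3007 on the TAC array of 2 weeks.

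The arrays can also be compared along time within a treatment, with the caution that each of these pairs shares an array with the comparisons above. Between the sham arrays the 9 members differed little, with a median of 0.08 for 8 minus 2 weeks and a range from -0.16 to 0.20. No member passed 2-fold there, beside 1.67% of all genes higher and 1.01% lower. Between the TAC arrays 7 of the 9 were lower at 8 than at 2 weeks, with a median of -0.20, where 45.3% of all genes were lower. Again none passed 2-fold, beside 1.62% of all genes higher and 1.71% lower. Pdgfrb (-0.44), Acta2 (-0.42), Actg2 (-0.42) and Cnn1 (-0.21) were the lowest, and Tagln and Myh11 (0.05 each) were not lower. This direction depended on scaling. Without any scaling, the 75th percentile being highest on the TAC array of 8 weeks, the median of the members was 0.07 and that of all genes 0.30. The median of the members stood below that of all genes under both scalings.

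Regulators of these genes, both factors and cofactors, were checked from a list of 8 genes, all well above background. None was over 2-fold higher or lower at either time, and their median log2 difference was 0.11 at 2 weeks and 0.10 at 8 weeks. Elk1 entered with its brighter probe (-0.04 and -0.14), and its other probe gave 0.24 and 0.44, so its probes disagree. Srf differed by 0.16 and 0.17 and Myocd, which encodes myocardin, by -0.06 and -0.18. The largest differences were those of Csrp2, an LIM-domain cofactor of smooth muscle (0.62 and 0.50), of Klf4, a repressor of the contractile programme (0.44 and 0.23), and of Mrtfa, a myocardin-related coactivator of SRF (0.42 and 0.31, and 0.32 and 0.33 with its other probe). Between the sham arrays Klf4 differed by 0.39, more than after TAC at 8 weeks.

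Of 18 other contractile and cytoskeletal genes of smooth muscle, 17 were measured on all arrays. With the brightest probe of each gene, none was over 2-fold higher or lower at either time. Tpm1 differed by -0.18 at 8 weeks with that probe. Its other measured probes ran from -1.17 to 0.04 there, the lowest past 2-fold. At 2 weeks 14 were higher and 3 lower, with a median of 0.19, and at 8 weeks 11 were higher and 6 lower, with a median of 0.21. Of all genes, 48.3% were higher at 8 weeks in the main processing. Without scaling 15 of the contractile genes were higher and 2 lower at 8 weeks (median 0.37), where 74.3% of all genes were higher (median 0.16). With the array median as the scale 15 were higher and 2 lower (median 0.29), where 63.0% of all genes were higher (median 0.08). Several of these genes, such as Tpm1 and Des, are also made by cardiomyocytes. Cald1, which encodes the actin-binding caldesmon, was higher by 0.59 and 0.41, and by 0.57 and 0.54 with its other probe. Pcp4l1 was lower by a log2 difference of -0.60 at 2 weeks and -0.44 at 8 weeks. Aoc3, an amine oxidase of smooth muscle and fat, gave 0.63 and 0.29 with its brighter probe and -0.10 and -0.09 with the other, so its probes disagree.

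The 15 other pericyte genes were mostly higher than sham at 2 weeks and mostly lower at 8 weeks. At 2 weeks 10 were higher and 5 lower after TAC, with a median of 0.25, and at 8 weeks 5 were higher and 10 lower, with a median of -0.19 (7 higher and 8 lower, with a median of -0.02, without scaling). None passed 2-fold at either time. Mcam counted as lower with its brighter probe (-0.07 and -0.16), whereas its other probe gave 0.90 and 0.13, so its probes disagree. In all 15 the difference at 8 weeks was below that at 2 weeks, as in 49.2% of all genes. The count was 12 of 15 with the array median as the scale, against 27.0% of all genes, and 11 of 15 with no scaling, against 21.7%. Steap4 went from 0.51 to -0.28 and Higd1b from 0.47 to 0.06, whereas Abcc9, a subunit of the potassium channel of pericytes that cardiomyocytes also make, was lower at both times (-0.34 and -0.52).

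**Figure D3:**
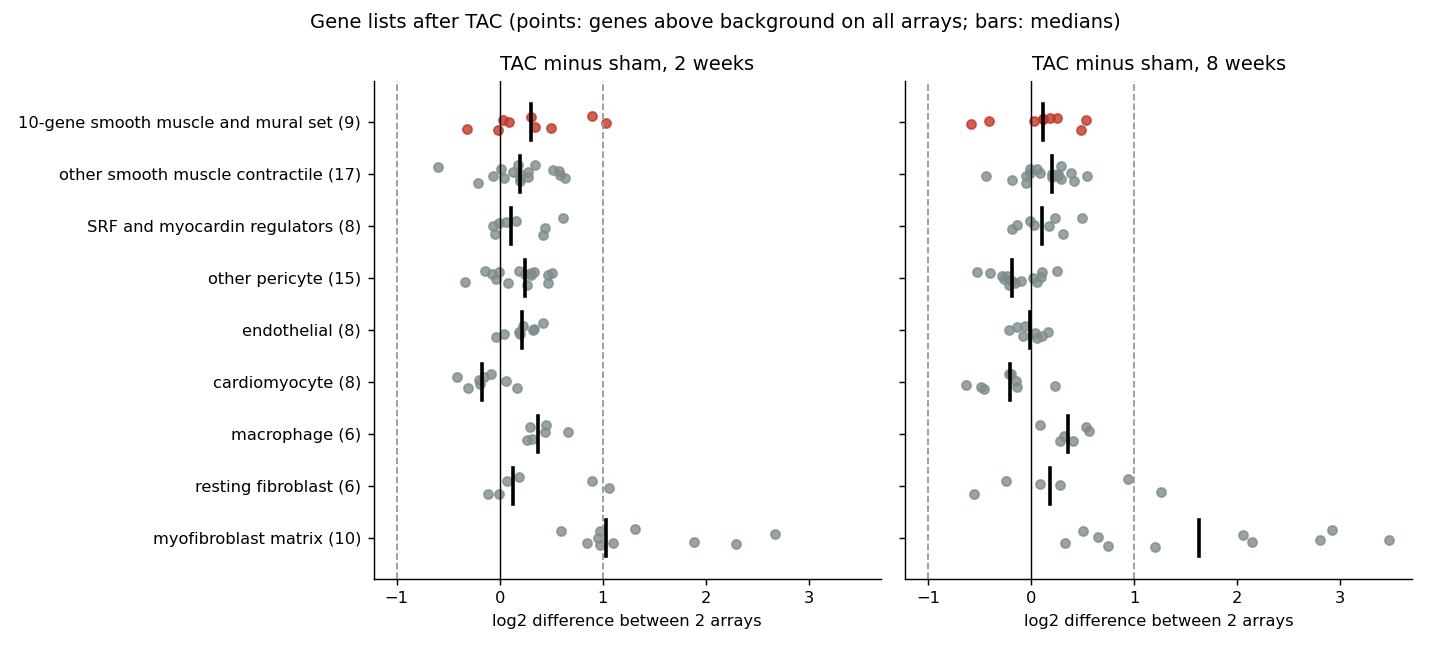
Log2 differences between TAC and sham at 2 weeks (left) and 8 weeks (right) for the smooth muscle and mural set (red) and for other gene lists (grey), 1 point per gene above background on all arrays, with a black bar at the median of the list and the number of genes in brackets. The myofibroblast matrix list stands to the right, with medians of 1.04 and 1.63, whereas the mural set has medians of 0.31 and 0.12.

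Ligands and relatives of the pericyte members were read in the same way. Among 5 genes of the PDGF family, none passed 2-fold. Pdgfb, the ligand of PDGFRB, differed by 0.30 and -0.04 with its brighter probe (the latter positive without scaling) and by 0.51 and -0.14 with the other. Pdgfa differed by -0.54 and -0.39 (-0.44 and -0.38 with its other probe), and Pdgfra, the receptor of fibroblasts, by 0.31 and 0.40. Pdgfc differed by 0.53 and 0.21 but by 1.13 between the sham arrays. Of 5 relatives of Rgs5, 4 were measured and none passed 2-fold with its brightest probe. Rgs2, an inhibitor of Gq signalling, was lower at -0.71 and -0.91, and its other probe gave -0.24 and -1.02, past 2-fold at 8 weeks. Rgs16 stood at 0.64 and 0.07. Rgs3 stood at 0.07 and 0.22, with 0.13 to 0.19 and -0.04 to 0.02 from its 2 other probes.

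The other actin genes were read beside Acta2 and Actg2. Acta1, the skeletal actin of the fetal and hypertrophied heart, was higher by log2 differences of 3.09 and 3.41. Actc1, the cardiac actin, differed by 0.01 and -0.12, the latter positive without scaling, and Actb, the cytoplasmic beta actin, by 0.18 and 0.27. Acta1 stood far above sham at both times, whereas Acta2 stood at -0.01 and -0.40. Near-identical coding sequences of actins can cross-hybridize, and this was not tested.

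Markers of other cell types moved with the same arrays, and their part in the differences above was not tested. Myofibroblast matrix genes were the ones that differed most. Of 12 such genes 10 were measured, 5 of them were over 2-fold higher at 2 weeks and 6 at 8 weeks, and their median was 1.04 and 1.63. Their summed relative signal was 43.9 in sham and 92.6 after TAC at 2 weeks, and 43.3 and 132 at 8 weeks. Ltbp2 (2.67 and 3.48), Postn (2.30 and 2.92) and Col8a1 (1.88 and 2.80) were the most different, and the matrix genes Cthrc1 and Tnc were not well above background on any array. Acta2, which myofibroblasts also make, had differences of -0.01 and -0.40 on the same arrays. 

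The 8 endothelial genes had a median of 0.21 at 2 weeks, with 7 of 8 higher, and of -0.01 at 8 weeks, with 4 of 8 higher. Without scaling the median at 8 weeks was 0.15 with 7 of 8 higher, beside 0.16 and 74.3% for all genes. The summed relative signal of the endothelial genes was 215, 258, 217 and 208. Most of the step at 2 weeks came from Egfl7, which went from 119 to 159. Egfl7 (0.42 and -0.14, the latter positive without scaling), Tie1 (0.33 and 0.11) and Cdh5 (0.33 and 0.06) differed most. The 6 macrophage genes were all higher at both times, with medians of 0.38 and 0.36 and sums of 41.5, 51.8, 42.8 and 55.7. With normexp 5 were higher and 1 lower at 8 weeks. Cd163 (0.66 and 0.09), C1qa (0.26 and 0.56) and C1qb (0.45 and 0.54) differed most. Cd163 was dim, at 0.0740, 0.117, 0.0737 and 0.0784, where the lowest signals well above background were 0.0469 to 0.0599. Of 6 genes of resting fibroblasts, with medians of 0.13 and 0.18, Pi16 was over 2-fold higher at both times (1.06 and 1.26), Lum stood at 0.89 and 0.94 and Tcf21 at 0.07 and -0.55.

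Cardiomyocyte genes were slightly lower. Their median was -0.17 at 2 weeks and -0.20 at 8 weeks, with 6 and 7 of 8 lower (-0.12 and 7 of 8 at 8 weeks with the array median as the scale, and -0.035 and 5 of 8 without scaling), and their summed relative signal was 5426, 4975, 5212 and 4555. Pln (-0.42 and -0.49), Ryr2 (-0.15 and -0.63) and Tnni3 (-0.31 and -0.46) differed most. Of other tissues, 1 of 5 skeletal muscle genes (Tnnt3) and 1 of 5 adipocyte genes (Cidea) were well above background on all arrays, and Myh1, Myh4, Adipoq and Plin1 were on none. Of the 4 atrial genes Myl4 was measured on all arrays, at -0.01 and -0.52, while Myl7 and Sln were well above background on 2 and 3 of them. Of the 3 that could be compared at 8 weeks, 2 were over 2-fold lower after TAC. Myl7 stood at 0.0489, 0.0778, 0.170 and 0.0303 on the 4 arrays, and Sln at 0.0772, 0.0929, 0.120 and 0.0354. With the TAC value at 8 weeks replaced by the lowest signal well above background on that array, Myl7 was 3.64-fold and Sln 2.55-fold lower than sham. These folds are not strict bounds, since a probe not well above background can read higher than that signal, as Rgs18 did. The sham array of 8 weeks held the highest signal of both genes. This is the pair of arrays on which Acta2 and Smtn were lower, and the part of atrial tissue in those differences was not tested.

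Genes with the profile most like that of Actg2, the member with the widest range over the 4 arrays, were sought among the 14299 measured genes by the root mean square difference of centred log2 signals. The nearest were Ackr2 (0.0400), the matrix gene Fn1 (0.0482) and Dusp2 (0.0519). Fn1, fibronectin, was higher by 1.10 at 2 weeks and 0.65 at 8 weeks. With 4 arrays a likeness of this kind is a description.

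**Figure D4:**
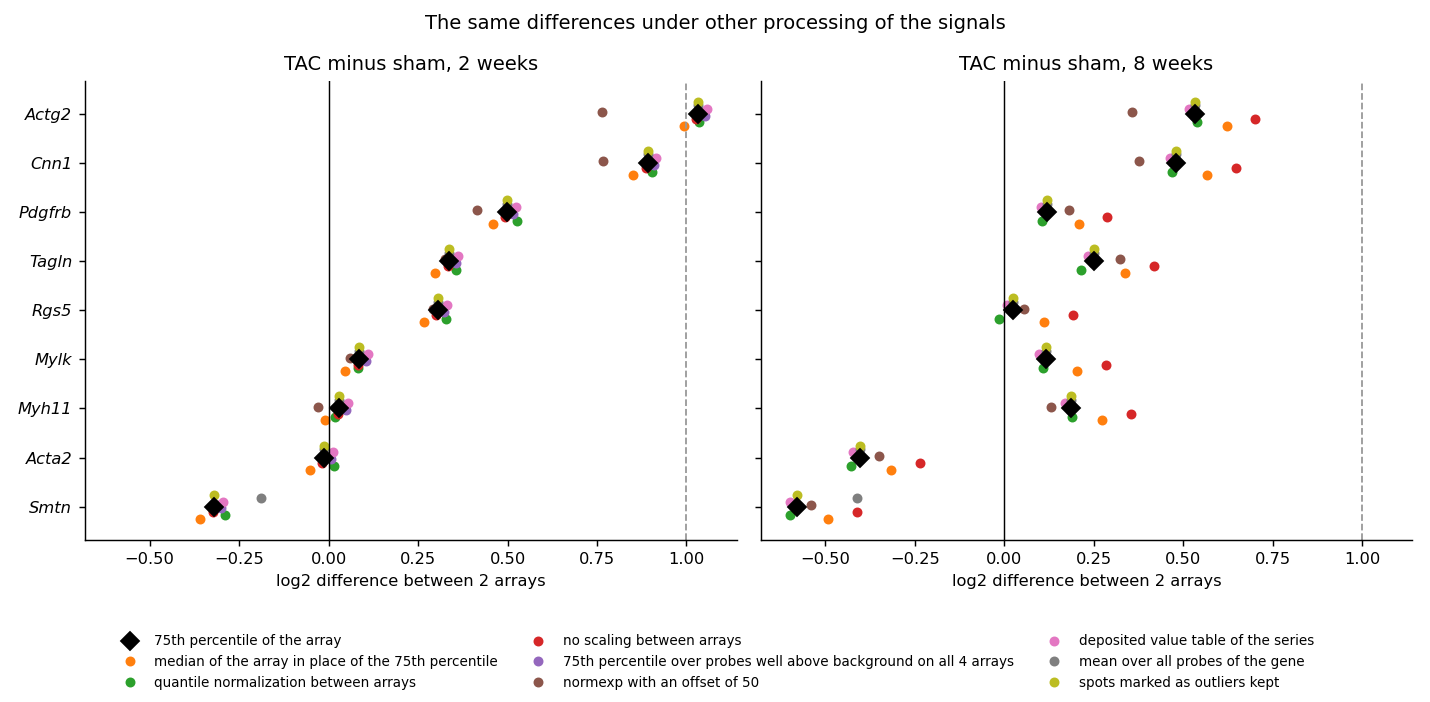
Log2 differences between TAC and sham for the 9 genes at 2 weeks (left) and 8 weeks (right), with the values of the main processing as black diamonds and those of other scaling, background correction, probe choice or outlier handling as coloured points. At 8 weeks the points without scaling lie to the right, as for Rgs5, whose values run from -0.01 to 0.19. At 2 weeks Actg2 has the widest spread, from 0.76 to 1.06.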

How the data were processed

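Total RNA from 4 pools of mouse hearts was hybridized to Agilent SurePrint G3 arrays, annotated on mm9. The authors deposited scanner files whose processed signal is an intensity per spot, background-corrected and detrended but not scaled between arrays. The file headers name Feature Extraction 10.7.3.1 and the submitters' processing notes 9.1. The deposited table of the series held the same intensities times a constant for each array (3.52 to 4.35). Deposited flags mark spots as well above background, saturated or outliers.

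Outlier spots were left out, log2 signals of the spots of a probe were averaged, and each array was scaled by subtracting its own 75th percentile, taken over all probes other than controls. The brightest probe stood for a gene. Probes were named through RefSeq and Ensembl identifiers (29501 of 32342 matched, 91.2%), and gene positions and promoters are those of GRCm38. A gene was tested when well above background on the brighter array. With 1 array per condition there was no test.

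The members and lists were chosen with earlier results of these data known. Named were all members, the hypertrophy genes, up to 3 genes of each other list with the largest absolute difference, and the 3 genes with profiles most like Actg2; further genes were named after their values were seen. Alternatives were array-median, quantile and no scaling, the percentile over measured probes, normexp (offset 50, limma 3.58.1, R 4.3.3), the deposited table, all probes of a gene, outliers kept, a stricter filter and 1.5-fold. The number of arrays limits the precision. A comparison of actin protein sequences was not made here. Counting was tested on simulated data. Python 3.11.15, pandas 2.3.3 and numpy 2.4.6 were used.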

Additional observations from a re-analysis of the deposited data

Results flagged for a closer look

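The 5 genes singled out here, from all the gene lists, stood above sham at 2 weeks and below sham at 8 weeks. Each time the difference exceeded 0.162, the spot error over all signal levels. Of all genes measured, 15.3% were higher at 2 weeks and lower at 8 weeks, and 3.05% were so by that margin. The genes were picked because they met this rule, and their share among all genes of the lists is not given here. With 1 array per condition the difference between the times was not tested. The pericyte genes Kcnj8, a potassium channel subunit, and Steap4 went from 0.30 to -0.40 (8 weeks minus 2 weeks, -0.70) and from 0.51 to -0.28 (-0.79). Gucy1a1 and Gucy1b1, which encode the subunits of the nitric oxide receptor guanylyl cyclase, went from 0.19 to -0.21 (-0.40) and from 0.26 to -0.26 (-0.53). Tek, the endothelial receptor of angiopoietins, went from 0.23 to -0.21 (-0.44). Tek and Steap4 lay below the 75th percentile, where the spot error was 0.227, so Tek at 8 weeks was within the error at its level. Without scaling between arrays the values at 8 weeks were -0.23 for Kcnj8, -0.11 for Steap4, -0.05 for Gucy1a1, -0.10 for Gucy1b1 and -0.05 for Tek, of which only that of Kcnj8 exceeded 0.162. In the main processing none of the 9 measured members changed its side of sham, whereas with quantile normalization Acta2 and Rgs5 did, and under 4 other alternatives 1 member did.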

How the results depend on the processing

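No paired analysis was possible because each condition has 1 array. Counts and medians over the members stayed the same in 71 combinations of result and alternative and moved in 6. Differences of single members stayed the same in 132 and moved in 12. The same meant within 0.162 of the main value for a median or difference, and within 1.5-fold for a count. Several alternatives could change little, since only Smtn had a second probe and the stricter filter kept the same members. Reversal was looked for only past 2-fold, which was Actg2 at 2 weeks alone, and it kept its sign. Small differences of Acta2, Myh11 and Rgs5 did change sign. The count of members over 2-fold higher at 2 weeks, 1 in the main processing, was 0 with the array median as the scale, where Actg2 stood at 0.99, and 0 with normexp, where it stood at 0.76, and it was 2 at 1.5-fold. Without scaling the median of the members at 8 weeks was 0.29 instead of 0.12, and between the TAC arrays it was 0.074 instead of -0.20, while the median of all genes moved to 0.16 and 0.30. With the array median the latter was 0.12. Promoters with a CArG box numbered 2 instead of 0 with 1 mismatch. Over 8 alternatives Cnn1 at 2 weeks stayed between 0.77 and 0.92, Actg2 between 0.76 and 1.06, and Smtn at 8 weeks between -0.60 and -0.41. Signal over background limits Lmod1 fully and Actg2, Myh11 and other dim probes in part.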
